A study of Mus musculus with 4 samples.

Results

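The unfolded protein response and endoplasmic reticulum (ER) chaperone genes were examined in J558 allografts. The set comprised 39 genes of the 24421 in the count tables, listed by symbol for their roles in the response and matched to the gene names of the tables. They fall into 12 ER chaperones and co-chaperones, 7 genes of disulfide formation and the thioredoxin family, 11 genes of ER-associated degradation, and 9 sensors, transcription factors and stress effectors.

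J558 is a mouse plasmacytoma line of the B lineage, and its cells were grown as tumors in female BALB/c mice with an intact immune system. Mice received either vehicle (0.5% methylcellulose) or TAK-931, an inhibitor of the replication-initiating kinase CDC7, given orally at 60 mg/kg once daily, and allografts were sequenced on day 6. The labels name 2 libraries per group (Vehicle-1, Vehicle-2, TAK-931-1 and TAK-931-2), each read here as its own allograft. All groups share the host strain, the sex and the cell line, and the RNA is that of whole tumor, including infiltrating host cells. The labels say nothing more on how the allografts of a group were kept apart, so p-values measure the spread between these samples.

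The ER folds secreted and membrane proteins, and unfolded protein there is sensed by IRE1 (Ern1), ATF6 and PERK (Eif2ak3). IRE1 splices Xbp1 mRNA and ATF6 is cleaved to a transcription factor, and both arms raise chaperones and degradation genes, whereas PERK slows translation and favors that of ATF4, which drives amino acid supply genes and the pro-apoptotic factor CHOP (Ddit3). Antibody-secreting plasma cells are known for high levels of this machinery, and for the use of XBP1 as one of their identity factors.

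Libraries held between 16487902 and 19589339 counts, and 13669 genes passed the filter on low counts, including 39 of 39 members. The TAK-931-treated allografts differed from each other far more than the vehicle-treated allografts did. The median absolute difference of the members on the log2 scale was 0.07 between the vehicle libraries and 0.84 between the treated ones, against 0.16 and 0.70 over all tested genes. Markers of J558 and plasma cells, such as Trap1a, Sdc1 and Jchain, were detected in every library, but their summed level in TAK-931-1 was 40.03% of the vehicle mean, against 120% in TAK-931-2, or 27.8% and 98.6% without Jchain. In the same library, 6 T-cell markers summed to 45.8 times, and 6 macrophage and monocyte markers to 15.8 times, their level with vehicle. In bulk tumor RNA, fewer cells of a type and less RNA per cell cannot be told apart.

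As a set, the members were lower in 1 of the treated allografts and near the vehicle level in the other. Of all counts, the members made up 2.46% in Vehicle-1 and 2.45% in Vehicle-2, with 95% Wilson intervals of 2.46 to 2.47 and 2.44 to 2.46 that cover counting error only. The share was 1.41% for TAK-931-1 (interval 1.41 to 1.42) and 2.50% for TAK-931-2 (interval 2.50 to 2.51). TAK-931-1 was below both vehicle libraries for 32 members and above both for 4, whereas TAK-931-2 was below both for 19 and above both for 19. Over all tested genes, TAK-931-1 was below both for 47.4% and above both for 46.1%, and TAK-931-2 for 44.4% and 42.3%, so the counts of TAK-931-2 were near the background. Relative to the mean of the vehicle libraries, the median member had a log2 ratio of -0.80 in TAK-931-1 and of 0.07 in TAK-931-2. In TAK-931-2, 31 members lay within 1.5-fold of the vehicle mean. The members more than 2-fold below it numbered 13 in TAK-931-1. Only Trib3 and Chac1, 2 members, were that far below it in TAK-931-2. The shares of all tested genes at these fold limits were not counted, so these numbers have no background to be read against.

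**Figure D1:**
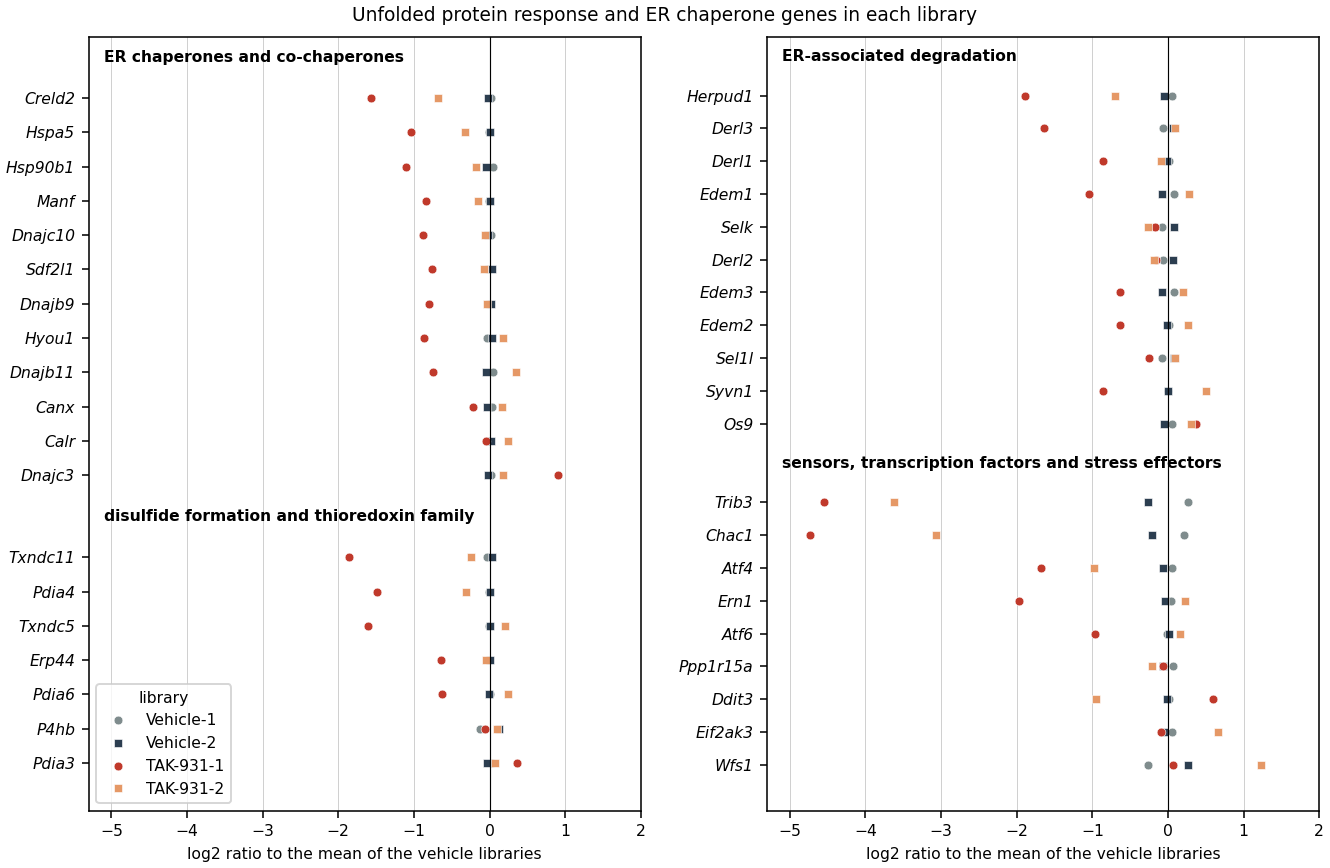
Each point is 1 library, placed by its log2 ratio of CPM (counts per 1000000, with library sizes adjusted by TMM) to the mean of the vehicle libraries, for the 39 members ordered within their role by fitted fold change. TAK-931-1 lies left of both vehicle libraries for 32 members (47.4% of all genes), TAK-931-2 for 19 (44.4% of all genes), and Trib3 and Chac1 lie more than 2-fold below the vehicle mean in both.

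Across the groups, 0 of the 39 members passed edgeR's quasi-likelihood test at an adjusted p of 0.05 (0% of all 13669 genes passed), and the lowest adjusted p of a member was 0.275. At an unadjusted p under 0.05, 0 members were higher (11.6% of all genes) and 4 were lower (6.55% of all genes), namely Trib3, Chac1, Atf4 and Creld2. By DESeq2, 0 members were higher (9.09% of all genes) and 3 were lower at an adjusted p of 0.05 (1.08% of all genes), namely Atf4, Chac1 and Trib3. By edgeR with a replicate block, 0 were higher (1.03% of all genes) and 2 were lower (0.0219% of all genes). The limma-voom fit called 0 members (0% of all genes). The fitted log2 fold change was positive in 8 members and negative in 31, with a median of -0.25 against 0.02 over all genes. This split depended on the scaling. With libraries scaled to the J558 and plasma cell markers, 29 were positive and 10 negative, with a median of 0.32 against 0.85 over all genes. The groups did not overlap for 3 members that were higher with TAK-931 (30% of all genes) and 17 that were lower (32.7% of all genes). With 2 libraries against 2, an exact permutation test of a single gene cannot go below a p of 0.333.

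Among the ER chaperones, Hspa5, Hsp90b1 and Creld2 were lower in both treated allografts, with more of the difference in TAK-931-1. Hspa5, which encodes BiP, the Hsp70 chaperone that also holds the sensors inactive, was at 2664 and 2707 CPM in Vehicle-1 and Vehicle-2, and at 1309 and 2142 CPM in TAK-931-1 and TAK-931-2. Both treated libraries lay below both vehicle libraries, with a fitted log2 fold change of -0.64 (SE 0.33) and an edgeR adjusted p of 0.329. Hsp90b1, which encodes the ER Hsp90 GRP94, was at 4802 and 4525 CPM with vehicle and at 2169 and 4101 CPM with TAK-931. Its groups also did not overlap (log2 fold change -0.57, SE 0.38, edgeR adjusted p = 0.408). Creld2, a secreted ER stress-inducible factor, was at 489 and 476 CPM with vehicle and at 162 and 300.1 CPM with TAK-931. Creld2 was thus at 33.6% and 62.2% of the vehicle mean in the treated libraries, the lowest share of the 12 chaperone genes in each (log2 fold change -1.06, SE 0.37, edgeR adjusted p = 0.275).

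The lectin chaperone branch and the co-chaperones did not follow one pattern. Calr (calreticulin), a lectin chaperone that binds monoglucosylated glycoproteins, was at 1811 and 1865 CPM with vehicle and at 1780 and 2173 CPM with TAK-931, so the treated libraries lay on either side of the vehicle pair (log2 fold change 0.10, SE 0.24, edgeR adjusted p = 0.810). Dnajc3, which encodes the BiP co-chaperone and PERK inhibitor p58IPK, was at 87.4 and 84.3 CPM with vehicle and at 160.2 and 96.7 CPM with TAK-931. It was the only chaperone gene that was higher in both treated libraries (log2 fold change 0.58, SE 0.32, edgeR adjusted p = 0.343). The other 7 genes (Hyou1, Canx, Dnajb9, Dnajb11, Dnajc10, Sdf2l1 and Manf) ranged from 54.4% (Dnajc10) to 85.8% (Canx) of the vehicle mean in TAK-931-1, and from 89.7% (Manf) to 128% (Dnajb11) in TAK-931-2. Of the 12 chaperones, 7 were lower and 1 was higher without overlap between the groups, against 32.7% and 30% of all genes.

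Per kilobase of exon, the order of levels among chaperones and disulfide isomerases was led by Hsp90b1 in the vehicle libraries, at 1740 and 1640 CPM per kb, followed by Hspa5 at 1018 and 1035, Calr at 932 and 960.0 and Pdia6 at 802 and 798. These neighbors did not overlap between the vehicle libraries. In TAK-931-1 the order changed, with Calr at 916 CPM per kb above Hsp90b1 at 786, Pdia3 at 548, Pdia6 at 519 and Hspa5 at 500.3. In TAK-931-2, Hsp90b1 led again at 1486 CPM per kb, with Calr at 1118, Pdia6 at 950 and Hspa5 at 819.

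**Figure D2:**
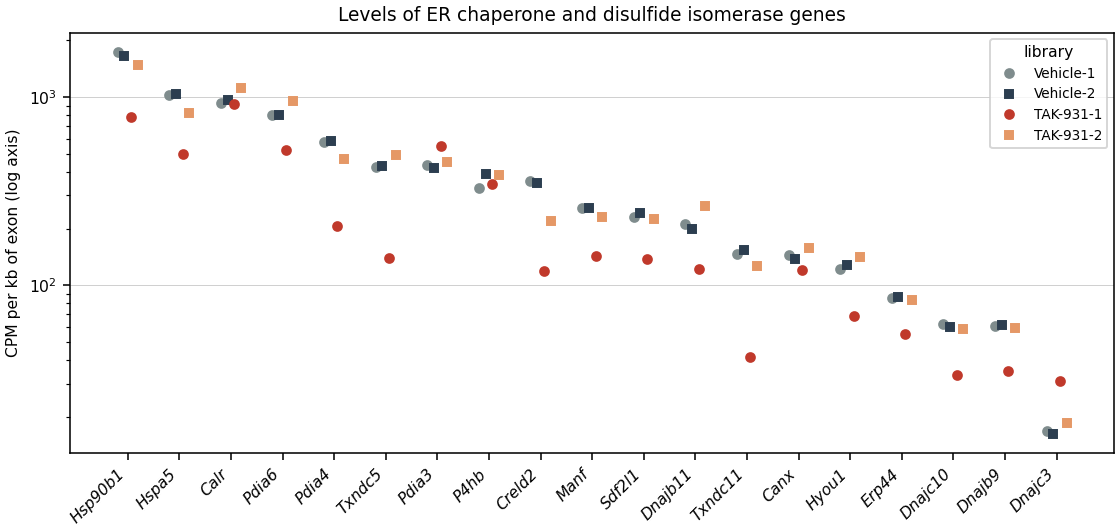
Points give the level of each chaperone and disulfide isomerase gene in each library as CPM per kb of exon on a log axis, ordered by the vehicle mean. Red circles (TAK-931-1) lie below the vehicle points for most genes, with Dnajc3 and Pdia3 above them, and orange squares (TAK-931-2) stay close to the vehicle points.

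Promoters of ER chaperones are known for a shared sequence, the ER stress element (ERSE), held to bind NF-Y at its CCAAT end and ATF6 or XBP1 at its CCACG end. The letters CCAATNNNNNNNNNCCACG, searched on both strands from 250 bases before to 50 bases after the RefSeq start site (GRCm38.p6), occurred in 9 of the 35 members with a promoter entry (25.7%) and in 37 of all 27025 genes (0.137%). The related ERSE-II (ATTGGNCCACG) occurred in 2 members (5.71%, against 0.0444% of all genes), and the core of the unfolded protein response element (TGACGTGG) in 2 (5.71%, against 0.714%). Matches of different motifs did not overlap in any member. At least 1 of these motifs was found in 7 of 10 chaperone genes, 3 of 7 disulfide isomerase genes, 3 of 10 degradation genes and 0 of 8 sensors and effectors. A match describes the sequence and is not a measured binding site. The ERSE matches are shown because 6 of the 9 genes that hold one are chaperones, each written in the direction of the motif with its fixed letters in capitals and named by its gene.
Hspa5: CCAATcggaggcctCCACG
Hsp90b1, distal: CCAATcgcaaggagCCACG
Hsp90b1, proximal: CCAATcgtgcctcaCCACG
Calr: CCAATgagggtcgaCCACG
Canx: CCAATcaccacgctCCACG
Creld2: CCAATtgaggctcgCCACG
Dnajc3: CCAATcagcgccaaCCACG
Pdia6: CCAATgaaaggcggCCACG
Derl3: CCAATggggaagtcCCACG
Syvn1: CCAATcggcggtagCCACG

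The members that hold an ERSE did not share a direction. Their fitted log2 fold changes ranged from -1.06 (Creld2) to 0.58 (Dnajc3), with Calr at 0.10, Syvn1 at -0.03 and Hspa5 at -0.64. The upstream windows of Hspa5 and Hsp90b1, the members of highest length-scaled level in the vehicle libraries, are given to show the element in place. The Hspa5 element begins 65 bases before the start site, and the Hsp90b1 elements begin 212 and 107 bases before it. Both sequences run 5′ to 3′ in the direction of the gene and end at the base before the start site, with ERSE matches in capitals (the distal Hsp90b1 match and that of Hspa5 read as the motif, and the proximal Hsp90b1 match is on the other strand).
Hspa5, chr2:34771840-34772089 (GRCm38.p6, + strand): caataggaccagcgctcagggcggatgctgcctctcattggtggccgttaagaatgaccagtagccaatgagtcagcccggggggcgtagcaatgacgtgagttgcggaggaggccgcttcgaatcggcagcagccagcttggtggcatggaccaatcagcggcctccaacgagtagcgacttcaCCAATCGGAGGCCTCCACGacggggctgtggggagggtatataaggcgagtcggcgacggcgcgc
Hsp90b1, chr10:86705445-86705694 (GRCm38.p6, - strand): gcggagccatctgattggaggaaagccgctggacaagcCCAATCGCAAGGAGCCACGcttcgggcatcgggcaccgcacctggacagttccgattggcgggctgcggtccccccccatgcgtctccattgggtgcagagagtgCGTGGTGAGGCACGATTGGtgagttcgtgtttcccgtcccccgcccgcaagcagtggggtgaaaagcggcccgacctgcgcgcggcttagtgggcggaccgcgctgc

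**Figure D3:**
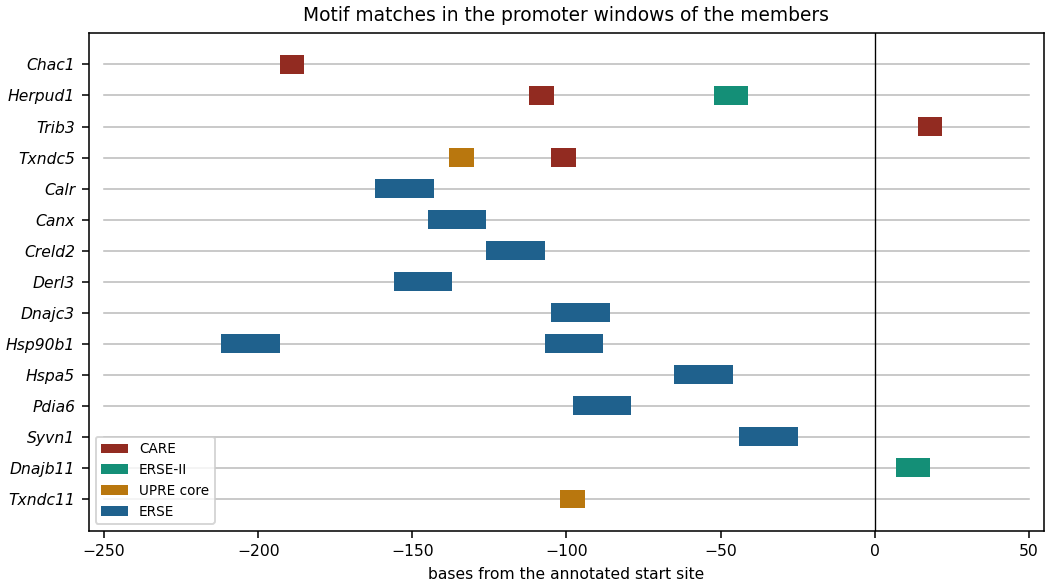
Colored bars mark the matches to ERSE, ERSE-II, the core of the unfolded protein response element (UPRE core) and the C/EBP-ATF response element (CARE) in the 15 members that hold one, by distance in bases from the annotated start site. All ERSE matches lie upstream of the start site, from 212 to 44 bases before it, and the 2 matches of Txndc5 belong to different annotated start sites of that gene.

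The disulfide isomerases, which form and rearrange disulfide bonds in secreted proteins, differed widely among themselves in TAK-931-1. Pdia4 was at 1426 and 1445 CPM with vehicle and at 513 and 1160 CPM with TAK-931, below the vehicle pair in both (log2 fold change -0.78, SE 0.45, edgeR adjusted p = 0.365). Txndc5, a thioredoxin-domain isomerase abundant in plasma cells, was at 1339 and 1360 CPM with vehicle, and at 442 and 1550 CPM with TAK-931. The treated libraries of Txndc5 were on opposite sides of the vehicle pair and 3.06-fold below the vehicle mean in the first (log2 fold change -0.44, SE 0.64, edgeR adjusted p = 0.691).

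Pdia6, an isomerase that also acts on IRE1, split in the same way, at 1705 and 1696 CPM with vehicle against 1104 and 2018 CPM with TAK-931 (log2 fold change -0.12, SE 0.37, edgeR adjusted p = 0.852). Pdia3, the isomerase partner of calreticulin and calnexin, was at 1152 and 1106 CPM with vehicle and at 1448 and 1187 CPM with TAK-931. Both treated libraries of Pdia3 were above both vehicle libraries, the only such isomerase of the 7 (log2 fold change 0.22, SE 0.24, edgeR adjusted p = 0.593). P4hb, Txndc11 and Erp44 were at 96.0%, 27.6% and 64.4% of the vehicle mean in TAK-931-1 and at 107%, 84.4% and 96.8% in TAK-931-2.

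In ER-associated degradation, which moves misfolded proteins to the cytosol for the proteasome, Herpud1 stood lowest. Herpud1, a membrane component of the HRD1 ubiquitin ligase complex, was at 462 and 432 CPM with vehicle and at 120.0 and 274 CPM with TAK-931. Both treated libraries lay below both vehicle libraries, at 26.8% and 61.3% of the vehicle mean (log2 fold change -1.18, SE 0.46, edgeR adjusted p = 0.278). Its promoter held the ERSE-II letters and a C/EBP-ATF response element, the kind of site ATF4 binds, searched as TGATGNAA. It was the only member with both, and its upstream window is printed for that reason, 5′ to 3′, with the CARE (on the other strand) and the ERSE-II in capitals, beginning 112 and 52 bases before the start site.
Herpud1, chr8:94386179-94386428 (GRCm38.p6, + strand): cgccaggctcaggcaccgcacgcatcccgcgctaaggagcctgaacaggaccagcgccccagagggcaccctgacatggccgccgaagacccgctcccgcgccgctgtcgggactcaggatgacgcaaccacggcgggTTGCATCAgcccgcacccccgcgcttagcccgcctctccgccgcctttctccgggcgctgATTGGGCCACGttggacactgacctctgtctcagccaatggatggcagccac

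Edem1, which extracts misfolded glycoproteins from the folding cycle, was at 917 and 822 CPM with vehicle and at 421 and 1053 CPM with TAK-931. Derl3, a derlin of the retrotranslocation channel, was at 170.2 and 188 CPM with vehicle and at 57.6 and 190.3 CPM with TAK-931. For both genes TAK-931-1 was below and TAK-931-2 above the vehicle pair (log2 fold changes -0.24, SE 0.50, and -0.53, SE 0.61, edgeR adjusted p = 0.787 and 0.611).

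Os9, a lectin that delivers glycoproteins to the HRD1 complex, was at 283 and 261 CPM with vehicle and at 351 and 334 CPM with TAK-931, and was the only degradation gene above the vehicle pair in both treated libraries (log2 fold change 0.33, SE 0.22, edgeR adjusted p = 0.410). Selk (selenoprotein K) was at 156 and 173 CPM with vehicle and at 145 and 137 CPM with TAK-931, a small gap in which the groups did not overlap (log2 fold change -0.22, SE 0.21, edgeR adjusted p = 0.546). The remaining genes (Sel1l, Syvn1, Edem2, Edem3, Derl1 and Derl2) ranged from 54.9% (Syvn1 and Derl1) to 89.1% (Derl2) of the vehicle mean in TAK-931-1, and from 87.5% (Derl2) to 142% (Syvn1) in TAK-931-2. Derl2 shares 5.56% of its exon bases with Mis12.

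The sensors of the response showed no shift common to both treated allografts. Atf6 was at 276 and 279 CPM with vehicle and at 142 and 308 CPM with TAK-931. Ern1, which encodes IRE1, was at 166 and 157 CPM with vehicle and at 41.2 and 189 CPM with TAK-931. Each of these genes was below the vehicle pair in TAK-931-1 and above it in TAK-931-2 (log2 fold changes -0.30, SE 0.43, and -0.49, SE 0.75, edgeR adjusted p = 0.688 and 0.707). Eif2ak3, which encodes PERK, was at 63.4 and 59.3 CPM with vehicle and at 57.6 and 96.9 CPM with TAK-931 (log2 fold change 0.33, SE 0.32, edgeR adjusted p = 0.547). Wfs1, an ER membrane protein that restrains ATF6 signaling, was at 11.1 and 16.1 CPM with vehicle and at 14.1 and 31.7 CPM with TAK-931. Only TAK-931-2 stood above the vehicle pair for Eif2ak3 and Wfs1 (Wfs1 log2 fold change 0.75, SE 0.52, edgeR adjusted p = 0.423).

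The genes with the largest differences of the set were Atf4 and genes known as its targets. Trib3, a pseudokinase that feeds back on ATF4, was at 74.1 and 51.4 CPM with vehicle (1250 and 858 counts) and at 2.53 and 4.90 CPM with TAK-931 (48 and 84 counts). Both treated libraries lay far below both vehicle libraries, 24.8-fold and 12.8-fold under the vehicle mean, and the groups were separated by more than the spread within either. Its fitted log2 fold change was -4.08 (SE 0.47, edgeR adjusted p = 0.275), and by p it ranked 4 of 13669 genes.

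Chac1, which encodes an enzyme that degrades glutathione, was at 220.4 and 165 CPM with vehicle (3717 and 2747 counts) and at 7.06 and 22.6 CPM with TAK-931 (134 and 388 counts). Chac1 was 27.3-fold and 8.50-fold under the vehicle mean in the treated libraries (log2 fold change -3.70, SE 0.67, edgeR adjusted p = 0.275). Atf4 itself was at 644 and 593 CPM with vehicle and at 193 and 314 CPM with TAK-931, which is 31.3% and 50.8% of the vehicle mean (log2 fold change -1.29, SE 0.33, edgeR adjusted p = 0.275). For these 3 genes the adjusted p was 4.69e-11 (Trib3), 1.76e-06 (Chac1) and 0.0216 (Atf4) by DESeq2, and 0.0333, 0.0411 and 0.216 by edgeR with the replicate block. The fitted change of Trib3, Chac1 and Atf4 was negative in each of 14 alternative settings. That of Atf4 was smaller with libraries scaled to the J558 and plasma cell markers (-0.62) or to Trap1a alone (-0.48).

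Ddit3 and Ppp1r15a, unlike Trib3 and Chac1, were not separated between the groups. Ddit3, which encodes CHOP, was at 13.8 and 13.6 CPM with vehicle and at 20.8 and 7.001 CPM with TAK-931, so the treated libraries lay on opposite sides (log2 fold change 0.02, SE 0.61, edgeR adjusted p = 0.987). Ddit3 shares 7.81% of its exon bases with Mars on the other strand, and strand use in counting was not stated. Ppp1r15a, which encodes GADD34, the phosphatase subunit that reverses the PERK signal, was at 24.9 and 22.5 CPM with vehicle and at 22.7 and 20.4 CPM with TAK-931. The TAK-931-1 value of Ppp1r15a lay inside the vehicle range (log2 fold change -0.14, SE 0.26, edgeR adjusted p = 0.762).

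The letters of the C/EBP-ATF response element were found in 4 members (Chac1, Herpud1, Trib3 and Txndc5), which is 11.4% of those with a promoter entry, against 4.51% of all genes. In the direction of the motif the match read TGATGcAA in Chac1 and Herpud1, TGATGtAA in Trib3 and TGATGaAA in Txndc5. The match began 193 bases before the start site in Chac1, and 14 bases after it in Trib3. The upstream window of Chac1 is shown as that of the strongly lower gene whose match lies before the start site, 5′ to 3′, with the match, on the other strand, in capitals.
Chac1, chr2:119350992-119351241 (GRCm38.p6, + strand): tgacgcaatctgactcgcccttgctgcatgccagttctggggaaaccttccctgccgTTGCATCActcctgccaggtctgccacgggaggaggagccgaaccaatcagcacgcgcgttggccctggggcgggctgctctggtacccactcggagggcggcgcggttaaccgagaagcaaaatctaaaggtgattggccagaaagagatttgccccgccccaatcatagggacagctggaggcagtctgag

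**Figure D4:**
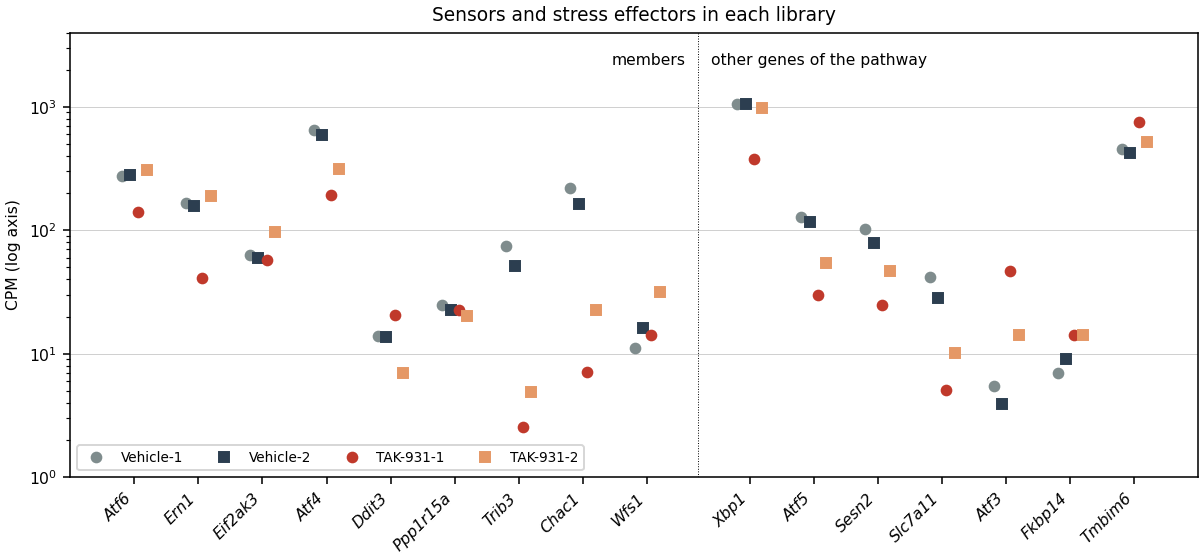
CPM on a log axis in each library for the 9 sensors and stress effectors (left) and for 7 further genes of the pathway (right). Trib3, Chac1 and Atf4 among the members, and Slc7a11, Atf5, Sesn2 and Xbp1 among the further genes, have both treated libraries below both vehicle libraries. Atf3, Fkbp14 and Tmbim6 have them above.

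A further list of 40 genes of the pathway (XBP1 and ATF4 partners and targets, glycan processing and degradation factors) was examined next. Its median fitted log2 fold change was -0.30, with 9 positive and 31 negative, 0 genes at an edgeR adjusted p of 0.05, and 1 higher and 4 lower at an unadjusted p under 0.05 (11.6% and 6.55% of all genes). The groups did not overlap for 5 that were higher and 23 that were lower (30% and 32.7% of all genes). Slc7a11, the cystine transporter subunit, was at 41.6 and 28.3 CPM with vehicle and at 5.06 and 10.1 CPM with TAK-931 (log2 fold change -2.21, SE 0.48, edgeR adjusted p = 0.275). Atf5, a transcription factor translated under the same control as Atf4, was at 128 and 116 CPM with vehicle and at 29.9 and 54.3 CPM with TAK-931 (log2 fold change -1.54, SE 0.36, edgeR adjusted p = 0.275). Sesn2, a stress-inducible regulator of mTORC1, was at 103 and 79.1 CPM with vehicle and at 25.0 and 47.0 CPM with TAK-931 (log2 fold change -1.34, SE 0.39, edgeR adjusted p = 0.275). In these 3 amino acid and redox response genes, both treated libraries were below both vehicle libraries, and TAK-931-1 was the lower of them. By DESeq2 the adjusted p was 0.00242 (Slc7a11), 0.0123 (Atf5) and 0.0557 (Sesn2), and with libraries scaled to the J558 and plasma cell markers the log2 fold changes were -1.62, -0.91 and -0.73. Asns (asparagine synthetase), singled out after its values were seen, was at 545 and 486 CPM with vehicle and at 53.6 and 235 CPM with TAK-931 (log2 fold change -1.84, SE 0.75, edgeR adjusted p = 0.282).

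Atf3, a stress-induced factor that other pathways also raise, went the other way, at 5.46 and 3.90 CPM with vehicle and at 46.4 and 14.2 CPM with TAK-931 (log2 fold change 2.69, SE 0.70, edgeR adjusted p = 0.275). For Atf3 the adjusted p was 0.0025 by DESeq2 and 0.0391 by edgeR with libraries scaled to the J558 and plasma cell markers (log2 fold change 3.90). Fkbp14, an ER prolyl isomerase of collagen, was at 6.94 and 8.99 CPM with vehicle and at 14.2 CPM in each treated library, and Tmbim6, an ER membrane regulator of cell death, was at 452 and 426 CPM with vehicle and at 756 and 522 CPM with TAK-931 (edgeR adjusted p = 0.2996 and 0.333). Both were higher in both treated libraries. Xbp1, the transcript spliced by IRE1, was at 1059 CPM in each vehicle library and at 377 and 972 CPM with TAK-931 (log2 fold change -0.65, SE 0.51, edgeR adjusted p = 0.470). Like Ern1 and Atf6, Xbp1 was well below the vehicle pair in TAK-931-1, and unlike them it was also below it, by less, in TAK-931-2. These gene-level counts do not tell the spliced form of Xbp1 from the unspliced one.

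**Figure D5:**
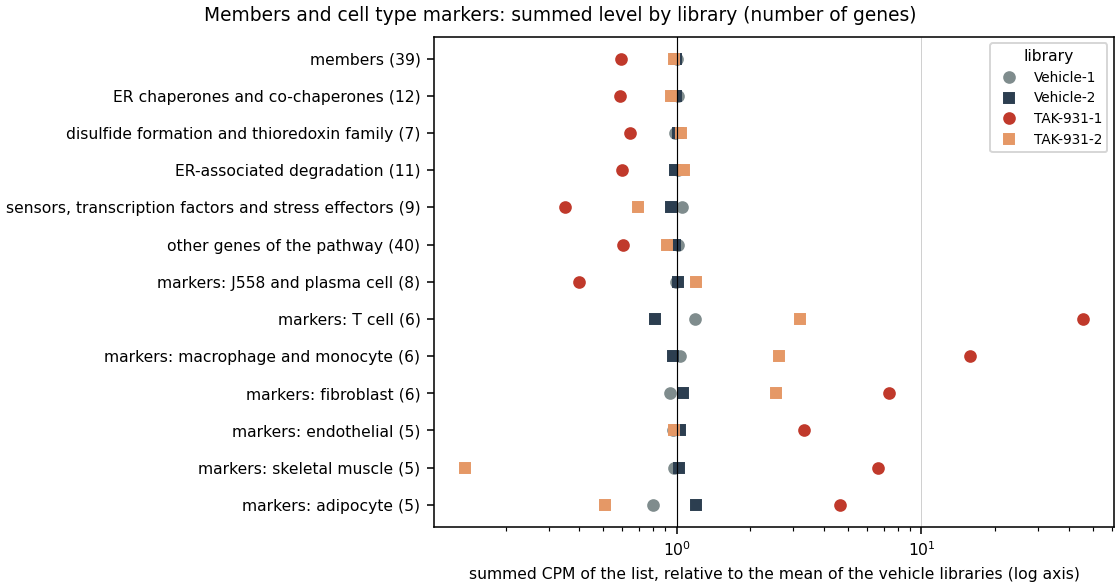
Summed CPM of each list of genes in each library, relative to the mean of the vehicle libraries, on a log axis with the number of genes in parentheses. In TAK-931-1 the members sit at 59.1% and the J558 and plasma cell markers at 40.03% of the vehicle mean, while T-cell, macrophage and fibroblast markers lie to the right in both treated libraries.

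Markers of tumor and host cells differed between the libraries along with the members. The summed CPM of the 39 members was 24848 and 24548 with vehicle, and 14592 and 24093 with TAK-931, which is 59.1% and 97.6% of the vehicle mean. The sensors and effectors were lowest by role, at 35.1% and 69.8%, whereas the other roles lay between 58.5% and 64.6% in the first treated library and between 94.6% and 107% in the second. Within that role, Atf4, Trib3 and Chac1 together were at 23.2% and 39.1% of the vehicle mean, and the other 6 genes at 54.0% and 119%. Beside these, the summed CPM of the 8 J558 and plasma cell markers was 13317 and 13541 with vehicle and 5376 and 16068 with TAK-931. Each of those 8 markers was below both vehicle libraries in TAK-931-1, whereas in TAK-931-2 3 were below both (Sdc1 at 84.7%, Pou2af1 at 79.2% and Eaf2 at 70.4% of the vehicle mean) and 5 above. The 5 above were Irf4 at 223%, Jchain at 151%, Prdm1 at 131%, Tnfrsf17 at 130% and Trap1a at 111% of the vehicle mean in TAK-931-2. Host markers were higher in TAK-931-1, with the summed CPM of 6 fibroblast markers at 1857 and 2108 with vehicle and 14642 and 5051 with TAK-931. The summed CPM of 6 macrophage and monocyte markers was 296 and 275 with vehicle and 4524 and 745 with TAK-931, and that of 6 T-cell markers was 23.7, 16.2, 912 and 63.8 in the same order. Endothelial and skeletal muscle markers summed to 3.33 and 6.64 times their vehicle level in TAK-931-1, and to 97.8% and 13.7% of that level in TAK-931-2. The adipocyte list, at 4.66 times and 50.8%, rested on Fabp4 (255 CPM in TAK-931-1), and Cidec, the only other marker of it that passed the filter, was at 69.4% and 52.0% of the vehicle mean. The part of these cell types in the members' values was not tested.

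When the libraries were scaled to the J558 and plasma cell markers instead, the median fitted log2 fold change of the members was 0.32 and that of all genes 0.85, and the members' median ratio was 0.66 (TAK-931-1) and -0.13 (TAK-931-2). Relative to the median of all genes, the members' median fitted log2 fold change differed by -0.27 with TMM and by -0.53 with the markers. Within each library the distance of the members from all genes was nearly the same on both scales. In TAK-931-1 the median ratios of members and all genes were -0.80 and -0.02 with TMM, and 0.66 and 1.43 with the markers. In TAK-931-2 they were 0.07 and -0.01 with TMM, and -0.13 and -0.21 with the markers. On that scale Hspa5 and Hsp90b1 had fitted log2 fold changes of 0.03 each, and the groups did not overlap for 8 members that were higher (Calr, Dnajb11, Pdia6, Syvn1, Edem2, Os9, Eif2ak3 and Wfs1) and 8 that were lower (Creld2, Pdia4, Txndc11, Herpud1, Derl3, Atf4, Trib3 and Chac1). Among all genes, 30.1% were higher and 5.95% were lower without overlap on that scale. Some gaps among the members were small. Pdia4 was at a log2 ratio of -0.022 in TAK-931-1 against -0.0094 in Vehicle-1, and Calr at 0.042 in TAK-931-2 against 0.021 in Vehicle-2. Trib3 and Chac1 kept log2 fold changes of -3.49 and -3.30, and Chac1 passed edgeR's test at an adjusted p of 0.05 as 1 of 763 genes and the only one of them that was lower. Relative to the J558 and plasma cell markers, Trib3 was at log2 ratios of -3.12 and -3.81 to the vehicle mean, and Chac1 at -3.28 and -3.26, in TAK-931-1 and TAK-931-2.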

How the data were processed

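RNA from 4 J558 allografts (2 vehicle, 2 TAK-931) was compared. The authors deposited 1 table of raw read counts per gene for each library, made with featureCounts (version not given) after alignment with STAR 2.6.1c to mm10, per the submitters' processing notes. The deposited tables also hold the summed exon length of each gene, which was used for CPM per kb. Strand use in counting was not given in the sources used here. Odd values made up 17.9% to 23.9% of the counts between 1 and 20, so both mates of a pair appear to be counted and Wilson intervals are too narrow. A pair of symbols altered to dates were kept apart by chromosome.

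Samples were grouped by their titles. Genes were filtered with filterByExpr (minimum count of 10) and tested with edgeR 4.0.16 in R 4.3.3 (TMM, robust quasi-likelihood test, two-sided, Benjamini-Hochberg over all 13669 genes, threshold 0.05, no covariate). The SE was derived from the quasi-likelihood F. CPM used TMM-scaled library sizes, and log2 ratios of single libraries a prior count of 2. DESeq2 1.42.0, limma-voom (limma 3.58.1), other scalings and filters, each library left out and a replicate block were alternatives. The fit was tested on simulated counts.

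The members and lists were chosen with earlier results of these data known. Values were printed for the 4 members of highest CPM per kb in each role, the 6 of lowest p in each direction, those with the largest gaps between groups (up to 4 in each direction), and the sensors and effectors. Of the further genes, the 3 of lowest p in each direction and Xbp1 were named. Promoter sequences came from RefSeq (GRCm38.p6), with entries for 35 of 39 members (not Hyou1, Manf, Derl1 and Atf6), Selk being matched as Selenok.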

Additional observations from a re-analysis of the deposited data

How the results depend on the processing

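Leaving out 1 library decided how many members passed. The number of the 39 members at an adjusted p of 0.05 ranged from 0 to 30, with 18 without TAK-931-1 (9 higher, 9 lower, against 12.6% and 16.1% of all genes), 30 without TAK-931-2 (3 higher, 27 lower, against 28.2% and 29.8%) and 0 without either vehicle library; the lone treated library is then assumed to vary like the vehicle pair. Over the same fits, members at an unadjusted p under 0.05 ranged from 0 to 12 (higher) and from 2 to 28 (lower), with 2 lower without Vehicle-1 or without Vehicle-2. Of all genes, 18.2% were higher and 22.6% lower at that p without TAK-931-1, 31.1% and 32.1% without TAK-931-2, and 6.50% to 6.52% and 0.356% to 0.459% without a vehicle library. The members' median log2 fold change ranged from -0.82 to 0.070, and the number of all genes called from 0 to 8424, being 3996 without TAK-931-1. The log2 fold change crossed 0 when a treated library was left out for Pdia6 (-0.65 to 0.24), Txndc5 (-1.63 to 0.20), Edem1 (-1.07 to 0.27), Derl3 (-1.66 to 0.084), Atf6 (-0.99 to 0.15), Ern1 (-1.99 to 0.22), Calr (-0.069 to 0.24) and Eif2ak3 (-0.11 to 0.66), and Ddit3 ranged from -0.97 to 0.58.

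Scaling to the J558 and plasma cell markers gave 1 member called, 2 lower at an unadjusted p (0.0439% of all genes), a median of 0.32 and 763 genes called; scaling to Trap1a gave 2 lower (0.0366% of all genes), 0.45 and 1015. The median ratio of TAK-931-1 was then 0.66 and 0.84, and that of TAK-931-2 -0.13 and -0.080, against -0.84 and 0.14 with library size only. Log2 fold changes were positive in 29 of the 39 members with the J558 markers and in 30 with Trap1a, against 8 with TMM. Among the members given with statistics, those that turned positive (J558 markers, then Trap1a) were Hspa5 (0.027, 0.16), Hsp90b1 (0.034, 0.17), Pdia6 (0.50, 0.63), Edem1 (0.26, 0.38), Selk (0.66, 0.81), Atf6 (0.25, 0.38) and Ppp1r15a (0.75, 0.91). Txndc5 turned positive under Trap1a only (0.039). These scalings move the median of all genes to 0.85 and 1.00. Ddit3, at 0.018 in the main fit, was at 1.20 with the J558 markers and 1.37 with Trap1a. It was at -0.018 with no filter, -0.18 with the replicate block and -0.15 with limma-voom. Trib3 (-4.65 to -3.35) and Chac1 (-4.79 to -3.09) were negative in all 14 alternatives. Atf4, Creld2, Herpud1 and Pdia4 were too, but were smaller under the marker scalings, at -0.62 and -0.48, -0.45 and -0.31, -0.65 and -0.52, and -0.24 and -0.12 (J558 markers, then Trap1a). Under Trap1a, Slc7a11, Atf5 and Sesn2 were at -1.49, -0.78 and -0.59, and Atf3 at 4.08 (edgeR adjusted p = 0.0226).

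With the replicate block, 2 members and 144 genes were called, and with DESeq2 3 members and 1389 genes. Deviations of same-numbered libraries correlated at 0.004 over genes, and the libraries share only a number. Halved counts, chosen after seeing the data, called 0 members (0% of all genes). Other causes of these shifts were not tested, and the spread of the TAK-931 pair (biological coefficient of variation 0.579, against 0.132 with vehicle) limits every comparison here.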
